A study of Danio rerio with 15 samples.

Results

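The transcripts of 10 transcription factor genes that shape the foregut, pancreas and liver were examined in whole zebrafish larvae exposed to one of a pair of chlorinated compounds. The genes are pdx1, ptf1a, gata4, gata6, hnf4a, foxa2, foxa3, prox1a, nr5a2 and sox9b. They were taken by gene symbol from the authors' deposited tables, where each of the 10 has 1 row among 36351 genes. The larvae (Danio rerio, strain AB, wild type) were exposed through the water between 24 and 100 hours after fertilization and sampled at the end of that time. One group received the vehicle DMSO at 0.01% by volume, another TCPM at 50 nM and the last TCPMOH at 50 nM. TCPM is tris(4-chlorophenyl)methane, with a hydrogen on its central carbon, and TCPMOH, tris(4-chlorophenyl)methanol, has a hydroxyl group there. The study had 15 samples, 5 per group, each a pool of 8 to 10 larvae, and drew on 20 breeding pairs and 3 experimental replicates.

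The vertebrate pancreas, liver and intestine grow from neighbouring stretches of the gut tube. Foxa and Gata factors open chromatin and set the competence of this endoderm. Pdx1 then marks the pancreatic and duodenal domain, Ptf1a and Nr5a2 run the programme of digestive enzyme genes in acinar cells, and Hnf4a and Prox1 act in the liver lineage, while Sox9 marks progenitors and ducts. At the stage sampled the zebrafish liver and pancreas have formed and the larva is about to feed. Several of these genes also work outside the gut, among them gata4 and gata6 in the heart, ptf1a in hindbrain and retinal interneurons, prox1a in lens and lymphatic vessels, sox9b in cartilage and glia, and foxa2 in the floor plate of the neural tube.

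Each compound has 1 deposited table with the authors' DESeq2 result for every gene and no value per library, with the fold change given as DMSO over compound. That direction was read from the values, and every fold change here that is credited to the authors' deposited tables has its sign turned to compound over DMSO. Group means below were worked out from each gene's mean over all libraries and its fold change. Read patterns of the rarest genes showed that 8 libraries entered each fit, 4 of DMSO and 4 of the compound. The same 4 DMSO libraries were in both, with 18.1 to 25.9 M assigned reads per library. Not all of the 5 samples per group thus entered the fits. The labels do not say which were left out or why. Whether the pools were from separate spawnings is not given, so the p-values measure the spread between these pools. Which of the 3 experimental replicates each pool came from is not given either. If all came from these 3, some of the 4 libraries of a group share a replicate. Markers of the organs in which the factors act were read in the larvae. The hepatocyte carrier fabp10a had a base mean (the mean normalised read count over all libraries of a fit) of 7612, the trypsin gene prss1 34531, the insulin gene ins 262.9 and the heart myosin light chain gene myl7 632.6 in the TCPM table. In pools of whole larvae, fewer cells of a type and less RNA per cell cannot be told apart.

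Of the 10 factors, gata4 alone passed the threshold of an adjusted p under 0.05, and only with TCPMOH. Larvae given the methanol had an estimated 1.67 times less gata4 transcript than the DMSO larvae, with a 95% interval of 0.446 to 0.803 for the ratio to DMSO. The deposited values also allow a second solution for this size, 1.96 times, which is described below. With TCPMOH 1 of 10 members was therefore called, beside 2.55% of the 21491 genes tested in that table, 1.00% lower and 1.54% higher than DMSO. With TCPM 0 of 10 were called, beside 1.89% of 22223 genes, 0.616% lower and 1.27% higher. A single call among 10 genes is too few to set against these shares and does not mark the group as responding. At an unadjusted p under 0.05, gata4 and prox1a were lower with TCPM and gata4 was lower and pdx1 higher with TCPMOH. Of all genes tested 8.62% reached that level with TCPM, 3.62% lower and 5.00% higher, and 9.68% with TCPMOH, 4.41% lower and 5.27% higher. The median log2 fold change of the 10 factors in the authors' deposited tables was -0.07 with TCPM and -0.03 with TCPMOH, against medians of 0.0003 and -0.0024 over all genes tested. With TCPM 8 of the 10 values were below 0 and with TCPMOH 7 of 10, where 49.9% and 50.9% of all genes were below 0. The compounds share their DMSO libraries, so these counts, and like values of a gene with both compounds, are not independent.

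**Figure D1:**
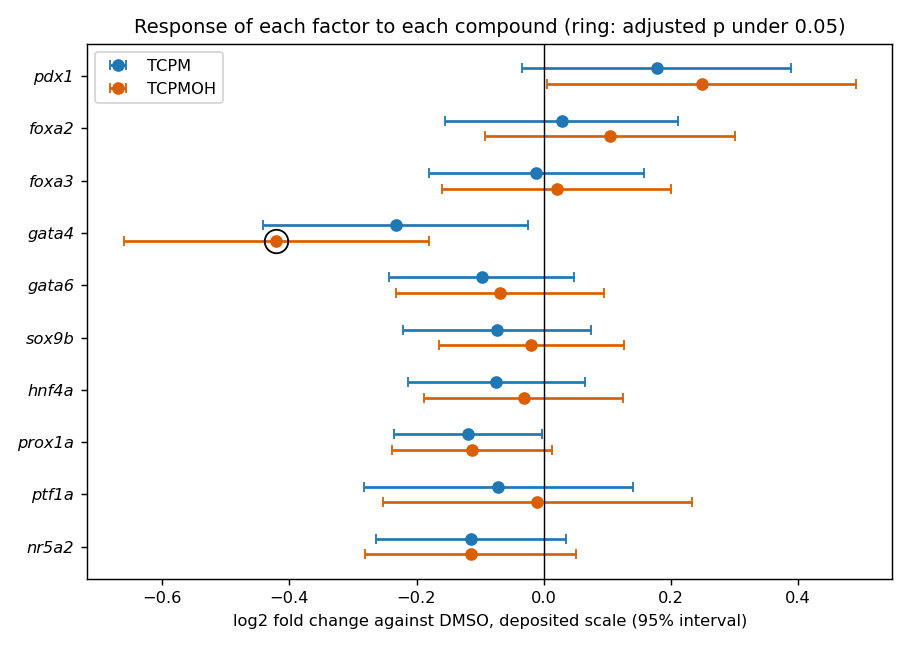
Log2 fold change of each factor against DMSO on the deposited, shrunken scale, with 95% intervals, for TCPM and TCPMOH (4 libraries per arm, shared DMSO libraries). The ring marks gata4 with TCPMOH at -0.42, the single value with an adjusted p under 0.05; for gata4 with TCPM and prox1a with TCPM the interval also stays below 0, and for pdx1 with TCPMOH it stays just above 0, without passing the adjusted threshold.

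The endoderm competence factors come first. The zinc finger factor gene gata4 (Entrez gene 30483) had an implied mean of 87.6 normalised reads in DMSO larvae, 66.9 with TCPM and 52.3 with TCPMOH, on the scale of the TCPM table. The spread between pools that the fit assumed, counting error included, was an SD of 14.8, 11.99 and 11.6 reads around these means. The DMSO mean lay above both compound means, and the gap to the TCPMOH mean was more than the SD of either group. In the authors' deposited table for TCPMOH the log2 fold change of gata4 was -0.42 with a standard error of 0.123 (DESeq2 adjusted p = 0.0292, unadjusted p = 0.000621), which ranked 459 of 31941 genes by p. For TCPM the value in the authors' deposited table, -0.23 (standard error 0.106, DESeq2 adjusted p = 0.445, unadjusted p = 0.0281), did not pass. Before shrinkage the TCPM ratio to DMSO was 0.763, with a 95% interval of 0.599 to 0.971. Undoing the shrinkage has a second solution for this weakly read gene, under which the decrease with TCPMOH would be 1.96 times rather than 1.67 and the value with TCPM 1.49 rather than 1.31. On a common scale, the log2 gap between the DMSO means of the tables was 0.0040 under the first solution and -0.0002 under the second. Over 10852 well-read genes this gap had an SD of 0.00825, so it does not decide between the solutions. The test statistic is the same under both. Group means, ratios and intervals before shrinkage given for gata4 are otherwise those of the first solution. They do not include the doubt between the solutions.

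The paralog gata6, which overlaps with gata4 in heart and foregut, had implied means of 415.3, 384.0 and 393.2 normalised reads in DMSO, TCPM and TCPMOH larvae, with SDs of 34.8, 32.6 and 37.3. These means differed by about the spread between pools or less. The authors' deposited tables give log2 fold changes of -0.10 with TCPM (standard error 0.074, DESeq2 adjusted p = 0.827) and -0.07 with TCPMOH (standard error 0.084, DESeq2 adjusted p = 0.949). The 95% intervals of the ratio to DMSO ran from 0.822 to 1.04 with TCPM and from 0.831 to 1.08 with TCPMOH. A loss of gata6 as large as the 1.67 times estimated for gata4 lies outside both intervals.

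The pioneer factors showed no call. For foxa2 the implied means were 181.4, 186.2 and 198.8 normalised reads in DMSO, TCPM and TCPMOH larvae, with SDs of 22.3, 22.8 and 24.5. Its relative foxa3, expressed in endoderm and liver, had 303.2, 300.2 and 308.6 reads with SDs of 31.9, 31.7 and 33.2. All 3 means lay within 1 SD of each other for both genes. Ratios to DMSO had 95% intervals of 0.866 to 1.22 and 0.922 to 1.30 for foxa2 with TCPM and TCPMOH, and of 0.855 to 1.15 and 0.876 to 1.18 for foxa3. In the authors' deposited tables the 4 adjusted p values of these genes from DESeq2 ran from 0.910 to 0.997.

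The pancreatic progenitor factor gene pdx1 had the highest log2 fold change of the 10 with either compound, and neither value passed. Its implied means were 51.7 normalised reads in DMSO, 65.9 with TCPM and 73.0 with TCPMOH, with SDs of 11.0, 13.4 and 16.9. Both compound means lay above the DMSO mean by more than the SD of the DMSO pools. They are set against the same DMSO libraries, so these are not independent measurements. In the authors' deposited tables the log2 fold changes of pdx1 were 0.18 with TCPM (standard error 0.108, DESeq2 adjusted p = 0.712) and 0.25 with TCPMOH (standard error 0.124, DESeq2 adjusted p = 0.490, unadjusted p = 0.0450). The ratio to DMSO was 1.28 with TCPM, with a 95% interval of 0.955 to 1.70, and 1.40 with TCPMOH, with an interval of 1.01 to 1.95.

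The duct and progenitor factor gene sox9b had 724.4, 683.0 and 714.2 normalised reads in DMSO, TCPM and TCPMOH larvae, with SDs of 62.2, 59.0 and 57.8. All 3 means lay within 1 SD. Its ratio to DMSO was 0.943 with TCPM (95% interval 0.837 to 1.06) and 0.985 with TCPMOH (0.881 to 1.102).

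The acinar factor genes were not called with either compound. For ptf1a, whose product forms the core of the complex that switches on digestive enzyme genes, the implied means were 57.6, 52.2 and 56.9 normalised reads in DMSO, TCPM and TCPMOH larvae, with SDs of 12.02, 11.1 and 13.7. The groups lay well within 1 SD of each other. The 95% intervals of the ratio to DMSO were wide, 0.677 to 1.21 with TCPM and 0.707 to 1.38 with TCPMOH. The nuclear receptor gene nr5a2 had 412.6, 376.1 and 376.3 reads with SDs of 35.7, 33.0 and 36.5. Both compound means lay below the DMSO mean by about 1 SD, at 0.911 and 0.912 times DMSO. The authors' deposited tables give nr5a2 log2 fold changes of -0.11 with both compounds, with standard errors of 0.076 and 0.085 (DESeq2 adjusted p = 0.764 with TCPM and 0.817 with TCPMOH).

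The liver factor genes did not pass either. The nuclear receptor gene hnf4a, a regulator of hepatocyte and enterocyte genes, had 526.4, 496.3 and 513.4 normalised reads in DMSO, TCPM and TCPMOH larvae, with SDs of 41.6, 39.6 and 45.6. Its ratio to DMSO was 0.943 with TCPM (95% interval 0.844 to 1.05) and 0.976 with TCPMOH (0.863 to 1.103). The homeobox gene prox1a, needed for liver growth and for lymphatic vessels, was the most deeply read of the 10, at 1424.8, 1302.2 and 1310.1 reads with SDs of 90.2, 83.1 and 89.1. Both compound means were lower than the DMSO mean by more than 1 SD of the pools, at 0.914 and 0.920 times DMSO. In the authors' deposited tables the log2 fold changes of prox1a were -0.12 for TCPM (standard error 0.059, unadjusted p = 0.0452, DESeq2 adjusted p = 0.559) and -0.11 for TCPMOH (standard error 0.064, unadjusted p = 0.0801, DESeq2 adjusted p = 0.636). The comparisons share their DMSO libraries, so the like values with both compounds are not 2 independent measurements.

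**Figure D2:**
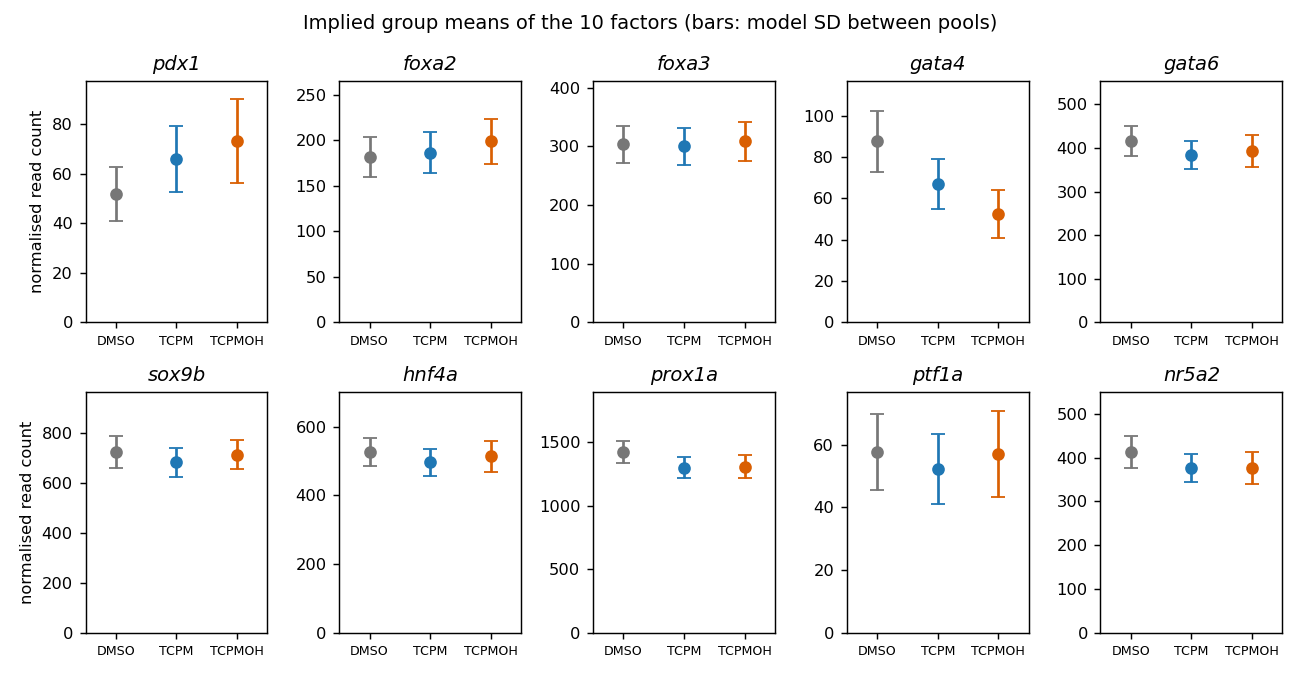
Implied group means of the 10 factors in normalised reads, on axes that start at 0, with bars of 1 SD between pools as the fit assumed it (4 libraries per group; TCPMOH rescaled to the TCPM table). For gata4 the mean is 87.6 in DMSO, 66.9 with TCPM and 52.3 with TCPMOH and for pdx1 it is 51.7, 65.9 and 73.0. The DMSO and TCPMOH bars of gata4 do not overlap, and those of the other 9 genes do.

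The exposures used the same dose and times, which allowed 1 comparison of compounds that differ by the hydroxyl group. For none of the 10 factors was a difference between TCPMOH and TCPM called. A two-sided normal test on the difference of the deposited log2 fold changes, adjusted over 22732 genes, called 0 of the 10, beside 0.453% of all genes, and 0 of the 10 reached an unadjusted p under 0.05, beside 4.62%. For gata4 the log2 difference, TCPMOH minus TCPM, was -0.19 with a 95% interval of -0.41 to 0.04 (unadjusted p = 0.104, adjusted p = 1.00). Before shrinkage gata4 was at 0.784 times its TCPM level with TCPMOH, with an interval of 0.593 to 1.04. The call of gata4 with the methanol and not with the methane is thus not a shown difference between the compounds.

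For pdx1 the same ratio was 1.099, with an interval of 0.811 to 1.49, and for ptf1a 1.09, with 0.793 to 1.49. The narrowest interval was that of prox1a, 0.918 to 1.103 around a ratio of 1.01, so that larger differences between the compounds lie outside it. For nr5a2 the ratio was 1.00 (0.880 to 1.14), for hnf4a 1.03 (0.920 to 1.16), for sox9b 1.05 (0.930 to 1.17) and for gata6 1.02 (0.904 to 1.16). The foxa2 ratio was 1.07 (0.900 to 1.27) and the foxa3 ratio 1.03 (0.886 to 1.19).

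**Figure D3:**
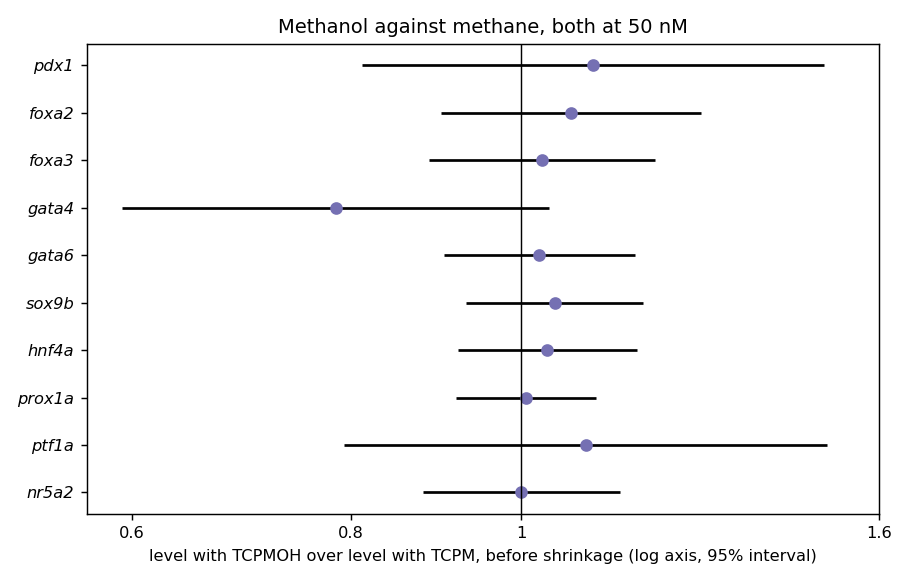
Level of each factor with TCPMOH over its level with TCPM, before shrinkage, on a log axis with 95% intervals. Every interval crosses 1; gata4 lies furthest from it at 0.784, and prox1a has the narrowest interval, 0.918 to 1.103.

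How small a change could be called differed between the members, with their read depth and with the spread between pools. The smallest Wald statistic among called genes was 3.31 with TCPM and 3.22 with TCPMOH. For prox1a that is a change of 1.16 times with TCPM and 1.17 times with TCPMOH, for hnf4a 1.204 and 1.224, for gata6 1.22 and 1.24, for nr5a2 1.23 and 1.25, for sox9b 1.223 and 1.202, and for foxa3 1.28 in both. For foxa2 a change of 1.33 times was needed in both tables. The 3 members with the lowest base means, which also had the widest spread between pools, needed more, 1.504 and 1.622 times for gata4, 1.63 and 1.72 for pdx1, and 1.64 and 1.73 for ptf1a. The pdx1 ratio of 1.40 with TCPMOH was therefore below what the test could call. The variation between pools beyond counting error, as a coefficient of variation implied by the standard errors, ran from 5.75% for prox1a to 16.2% for pdx1 in the TCPM fit and from 6.18% for prox1a to 19.9% for ptf1a in the TCPMOH fit. The values for gata4 here take the first solution of its shrinkage. Under the second its variation would be 23.0% with TCPM and 24.6% with TCPMOH, above both upper ends.

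**Figure D4:**
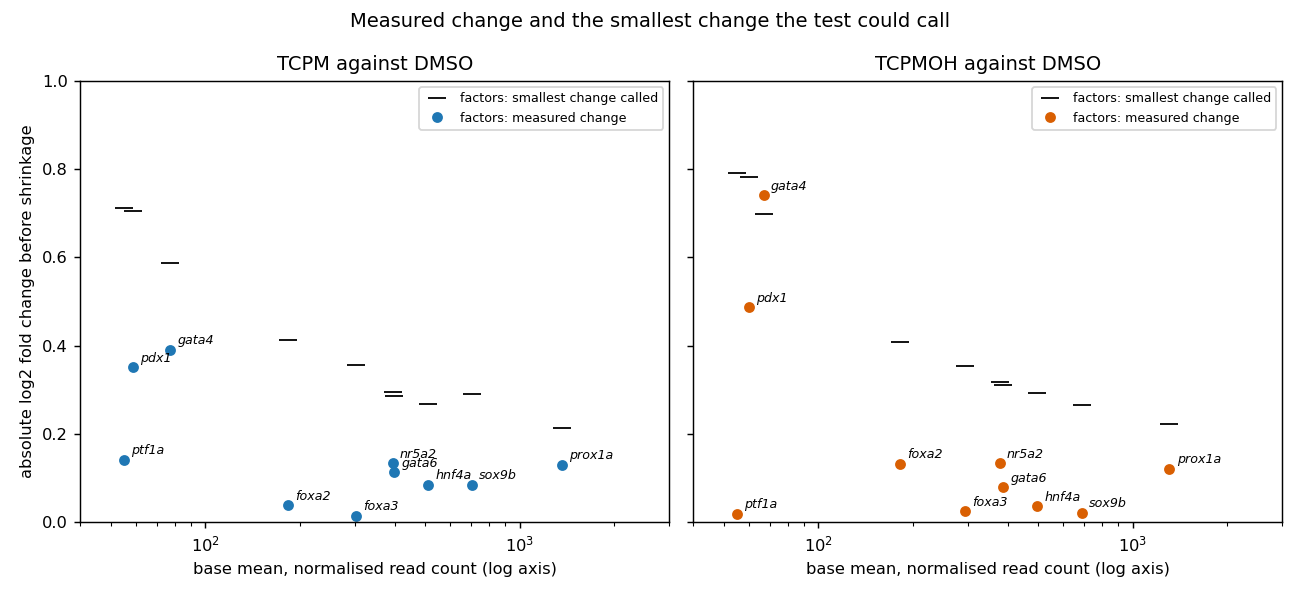
Absolute log2 fold change before shrinkage of each factor (points) and the smallest change that would have been called for it (dashes), against base mean on a log axis, for TCPM and TCPMOH. The dashes fall from 1.64 times for ptf1a to 1.16 times for prox1a with TCPM, and gata4 with TCPMOH, at 1.67 times, is the single point above its dash.

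The nearest relatives of the members were read in the same tables. Of 11 listed paralogs found, 9 had an adjusted p in each table. With either compound 0 of these were called, beside 1.89% of all genes tested with TCPM and 2.55% with TCPMOH. Among 9 genes, 0 calls cannot be told from these shares. The third Gata gene of endoderm and heart, gata5, had log2 fold changes of -0.03 with TCPM (DESeq2 adjusted p = 0.992) and 0.10 with TCPMOH (DESeq2 adjusted p = 0.888) in the authors' deposited tables. Also in the authors' deposited tables, foxa1 stood at 0.01 and 0.09, foxa at -0.23 and -0.12, hnf4b at -0.04 and -0.06, hnf4g at 0.07 and 0.17, prox1b at -0.13 and -0.09, prox2 at -0.02 and 0.06, and sox9a at -0.05 and -0.01 with TCPM and TCPMOH. The receptor gene nr5a5 was the furthest from 0 with TCPMOH among these, at 0.23 with TCPM (unadjusted p = 0.0211, DESeq2 adjusted p = 0.385) and 0.31 with TCPMOH (unadjusted p = 0.00657, DESeq2 adjusted p = 0.161) in the authors' deposited tables. Among the paralogs foxa with TCPM also reached an unadjusted p under 0.05, at 0.0298 in the authors' deposited table. The relatives nr5a1a and nr5a1b had base means of 11.5 and 11.4 in the TCPM table and were too weakly read to be given an adjusted p.

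A wider list of factors of foregut, pancreas and liver, without the 10, had 32 genes with an adjusted p for TCPM and 31 for TCPMOH. None was called with either compound, beside 1.89% of all genes tested with TCPM and 2.55% with TCPMOH. The median log2 fold change was -0.01 with TCPM and 0.00 with TCPMOH. At an unadjusted p under 0.05 TCPM had 3 lower and 0 higher and TCPMOH 1 lower and 3 higher. Of all genes tested, 3.62% were lower and 5.00% higher at that level with TCPM, and 4.41% and 5.27% with TCPMOH. Counts this small do not mark the list as responding. The genes are named here after their values were seen. With TCPM they were tcf3a at -0.23, its duplicate tcf3b at -0.12, both E proteins of the kind that pair with Ptf1a, and the hepatocyte factor gene cebpa at -0.15 in the authors' deposited table. With TCPMOH they were tcf3a at -0.28, the receptor gene nr0b2a, a repressor in bile acid signalling, at 0.27 (DESeq2 adjusted p = 0.0921), the proneural gene ascl1b at 0.30 and the islet and eye factor gene pax6b at 0.16 in the authors' deposited table. The acinar factor genes rbpjl, the partner of Ptf1a in acinar cells, and bhlha15 were at 0.15 and -0.02 with TCPM and at 0.00 and -0.03 with TCPMOH in the authors' deposited tables, also named after their values were seen.

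Beside these factor genes stood the genes of the organs they act in. Of 22 genes of the acinar cell, most of them for digestive enzymes, 4 were called higher with TCPM and 1 with TCPMOH. None was lower and the medians were 0.23 and 0.08, while 1.27% and 1.54% of all genes were called higher. The acinar list was chosen with earlier results of these data known, so these counts are not a test. In the authors' deposited table for TCPM the serine protease gene prss60.2 was at 0.41 (DESeq2 adjusted p = 0.000197), the phospholipase gene pla2g1b at 0.34 (adjusted p = 0.00381), the amylase gene zgc:92137 at 0.34 (adjusted p = 0.0126) and cuzd1.1 at 0.40 (adjusted p = 0.0156). With TCPMOH the authors' deposited table has prss60.2 at 0.46 (DESeq2 adjusted p = 0.000463). Not called there were pla2g1b at 0.04, zgc:92137 at 0.18 and cuzd1.1 at 0.28. The acinar factors ptf1a and nr5a2 had log2 fold changes of -0.07 and -0.11 with TCPM in the authors' deposited table (DESeq2 adjusted p = 0.958 and 0.764). In that table the acinar factors rbpjl and bhlha15 were at 0.15 and -0.02 (DESeq2 adjusted p = 0.783 and 0.994). No test of the factors against the acinar genes was made.

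Of 12 intestine epithelium genes 5 were called higher with TCPM and 4 with TCPMOH, with medians of 0.23 with each. Of all genes tested, 1.27% and 1.54% were called higher. This list too was chosen with earlier results of these data known, so its counts are not a test. With no filter on low means the TCPMOH count was 3. The fatty acid carrier gene fabp2 at 0.40 and 0.36, the chitinase gene chia.2 at 0.34 and 0.42 and the glucose transporter gene slc5a1 at 0.41 and 0.46 were called with both in the authors' deposited tables (DESeq2 adjusted p from 2.01e-07 to 0.00545). The retinol carrier gene rbp2a was called with TCPM at 0.41 (DESeq2 adjusted p = 1.33e-07) and pdzk1 with TCPMOH at 0.30 (DESeq2 adjusted p = 0.0396) in the authors' deposited tables. With the other compound both were also above 0 without a call. There rbp2a was at 0.26 with TCPMOH (DESeq2 adjusted p = 0.112) and pdzk1 at 0.24 with TCPM (DESeq2 adjusted p = 0.148). Among 16 endocrine pancreas genes none was called, beside 1.89% of all genes tested with TCPM and 2.55% with TCPMOH. Their medians were 0.05 and 0.06. A list this short cannot show by 0 calls that its genes were unchanged.

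Marker lists of the organs that express gata4 were set beside its decrease with TCPMOH. Of 10 heart muscle genes 0 were called with TCPMOH, beside 2.55% of all genes tested. Their median log2 fold change was 0.01, with a summed level of 4920.4 normalised reads in DMSO and 4831.5 with TCPMOH, a ratio of 0.982. The muscle factor gene mef2ca, with a base mean of 2273, is the largest part of that sum. Of 22 hepatocyte genes 0 were called, with a median of -0.01 and a summed level 1.01 times that of DMSO. Lists of 10 and 22 genes are too short for 0 calls to differ from the share over all genes. Intestine genes summed to 1.22 times and acinar genes to 1.08 times DMSO. The heart gene myl7 was at -0.01 and the hepatocyte gene fabp10a at -0.07 with TCPMOH in the authors' deposited table. The part of cell number in these organs in the gata4 value was not tested. With TCPM the ratios of the summed levels to DMSO were 0.975 for the heart, 1.03 for hepatocytes, 1.21 for the intestine and 1.27 for acinar genes.

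Genes of the other tissues that express members were not called either. Cartilage (11 genes), lens (10), lymphatic vessel (7), floor plate (6), pronephros (12) and the list of cerebellum, hindbrain and amacrine cells (13) had 0 called genes with either compound. Of all genes tested 1.89% were called with TCPM and 2.55% with TCPMOH. In lists this short, 0 calls do not show that a tissue was unchanged. Their medians ran from -0.03 for cartilage to 0.09 for lens with TCPM and from -0.01 for lymphatic genes to 0.11 for floor plate genes with TCPMOH. For sox9b, prox1a, ptf1a and foxa2 the share of transcript that comes from these tissues rather than the gut was not tested.

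**Figure D5:**
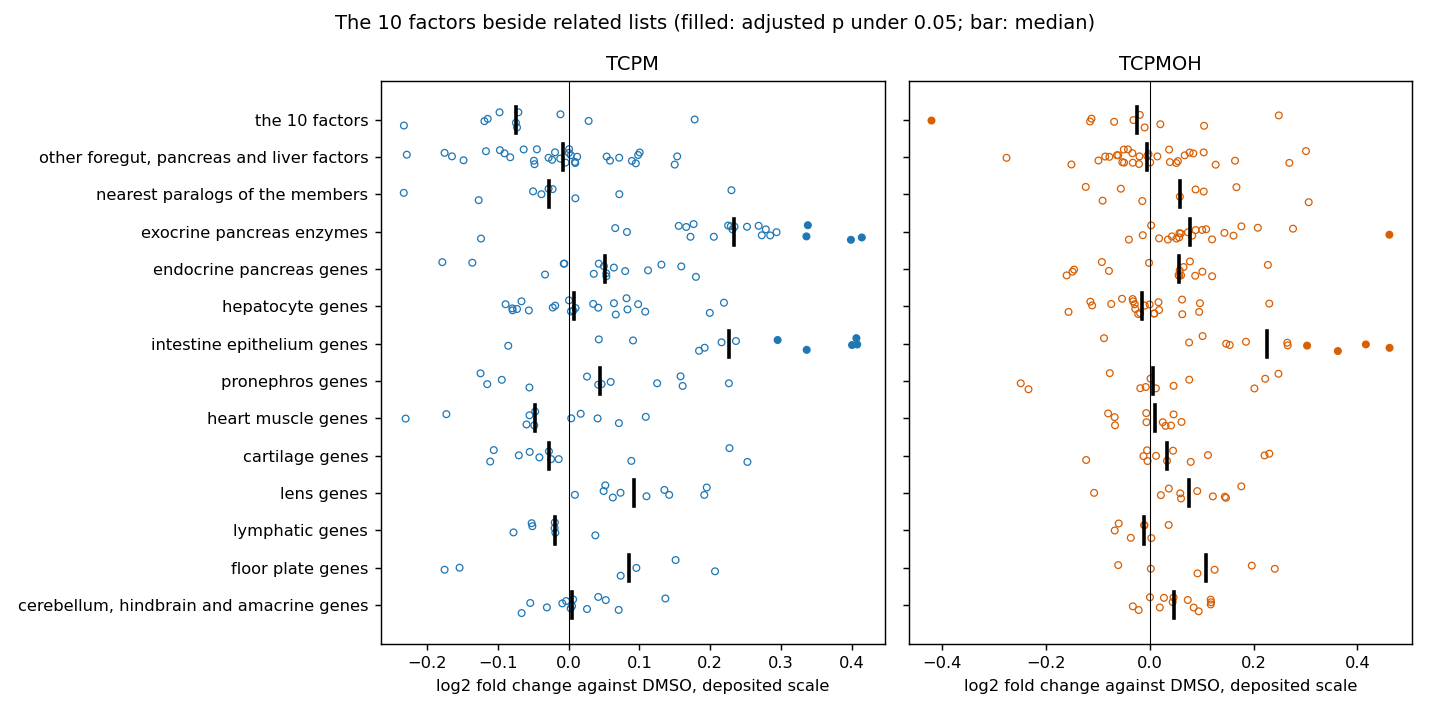
Deposited log2 fold changes of the 10 factors and of 13 related gene lists with TCPM and TCPMOH; each point is a gene with an adjusted p, filled where it is under 0.05, and the bar is the list's median. Filled points lie among the acinar genes (labelled exocrine pancreas enzymes) and intestine genes on the higher side and at gata4 with TCPMOH on the lower side.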

How the data were processed

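Per the labels, RNA of pools of 8 to 10 whole larvae went into stranded mRNA libraries that were read from both ends (100 nt) at a planned 25 M reads. The submitters' processing notes name FastQC, cutadapt, STAR, featureCounts and DESeq2 as the tools the authors used, without versions, and the gene models were GTF version V4.3.2, per the file headers. No source used here names the build, so coordinates and sequences are left out. The Entrez identifiers and symbols of all 10 members match RefSeq (GRCz12tu).

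The mean signal that the authors deposited is the DESeq2 base mean, the mean of read counts over size factors. The deposited log2 fold change and standard error come from the authors' DESeq2 fit, and the values showed that they were shrunken toward 0. The deposited Wald score is their quotient, and the deposited p-value was adjusted by Benjamini-Hochberg over the genes that a filter on low means kept.

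The tables hold 0 columns per sample, so the planned edgeR fits, other normalizations and removal of each library were not run. Genes with a single read gave 8 libraries per fit, with size factors of 0.859 to 1.22 and 0.897 to 1.27. All 548 lone-read genes of the 4 shared libraries in the TCPM table and all 654 in the TCPMOH table had positive deposited fold changes. The tables thus give the ratio of DMSO to compound, and every sign was turned.

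The normal prior, with an SD of 0.216 and 0.248 in log2, was undone to give ratios, group means and dispersions. For 7 members the DMSO means of both tables then lay within 0.0011 in log2, and the second solution moved them apart by at least 0.0202. For pdx1 and ptf1a, as for gata4, the DMSO means do not decide between the solutions. The solutions for pdx1 and ptf1a lie close together. The second puts pdx1 at 1.42 in place of 1.40 times DMSO with TCPMOH, and ptf1a at 0.906 in place of 0.907 with TCPM. The SDs and coefficients of variation are those of the fitted model, whose dispersions are themselves smoothed over genes. The compounds were compared with a covariance of 0.5 times the product of the standard errors, over genes whose base mean reached 10. Ratios between compounds used the covariance that the DMSO level and dispersion imply. Intervals are 95%. Scripts ran in Python 3.11.15 with scipy 1.17.1 and were tested on simulated data. The simulation took the first solution and the covariance of 0.5 times the product as given, so it tests neither choice.

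The members and lists were chosen with earlier results of these data known. All members and their nearest paralogs are named, and of the other lists at most 4 genes per table by smallest p among those called. Some genes that were not called are named outside that rule. They are the other factor genes at an unadjusted p under 0.05, rbpjl and bhlha15. The organ markers fabp10a, prss1, ins, myl7 and mef2ca are also named outside it. Likeness between genes was not computed, since each gene has only 2 fold changes with shared controls.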

Additional observations from a re-analysis of the deposited data

How the results depend on the processing

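The decrease of gata4 with TCPMOH kept its side of the threshold with no filter on low means (adjusted p = 0.0432), which leaves the fold change as it is. After centring on the median of all genes it kept its direction and its side of the threshold (-0.42, adjusted p = 0.0301). Undoing the shrinkage changes the size to log2 -0.74 and cannot change the p-value against DMSO, since the Wald statistic is the same. With a base mean of at least 100 it was not tested, since its mean is lower, and 0 of the factors were then called with TCPMOH in place of 1. Taking the second solution of the shrinkage equation for gata4, chosen after seeing the data, moved its log2 value from -0.74 to -0.97 with TCPMOH and from -0.39 to -0.58 with TCPM. It implies a variation between pools of 24.6% in place of 17.1% with TCPMOH. The difference between compounds for nr5a2, at 0.00 by either, changed sign before shrinkage (0.0006). Leaving out 50 values fixed in that way, 138 of 142 alternative values stayed the same. That means an unchanged direction and call, or for counts of called genes a value within 1.5 times the main count. The 142 include values between compounds with covariance 0, with the covariance implied by the DMSO level, and with other minimum means. Settings of the low-mean filter, the minimum mean and the covariance leave the log2 value as it is. Direction could not change under those settings, only the call. For genes far from the threshold the call had little room to change either, so this count is not a measure of robustness. Members with a base mean under 100 have no value of their own at that minimum and are not counted there. No paired analysis was possible because the tables hold no column per sample and the groups share no replicate numbers. Without values per library, whether 1 pool decides the call of gata4 could not be examined here.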
